A study of Mus musculus with 15 samples.

Results

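A set of 7 genes used as markers of brain regions that border the striatum were followed through 15 striatal RNA-seq libraries. They were taken from the tables by gene symbol, and are 7 of the 45777 features in the deposited tables. Slc17a6, Tcf7l2 and Prkcd are thalamic markers, Zic1 is a septal and thalamic marker, and Avp, Oxt and Pmch are hypothalamic peptide genes. All 7 were found in both tables.

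The mice were wild-type ICR males, an outbred stock, and the striatum was taken at 7 weeks of age in every group. Their male ancestors, the founders, were 6 weeks old when daily subcutaneous dosing began, with 5 mg/kg methamphetamine (METH, a dopamine-releasing psychostimulant) or 10 mL/kg saline over 21 days. Mating these founders with untreated females gave the F1 sons, and mating F1 males with untreated females gave the F2 sons, so that no sequenced mouse received METH itself. The groups were F1 saline lineage (n = 4), F1 METH lineage (n = 3), F2 saline lineage (n = 4) and F2 METH lineage (n = 4), and the question was whether the lineages differed within a generation. Litter and founder of each animal are not in the labels, so p-values set group differences against the spread between these samples alone. They also give the cell type as neuronal, although the tissue is striatum.

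Slc17a6 encodes VGLUT2, the transporter that fills synaptic vesicles with glutamate in most thalamic and many hypothalamic neurons. Striatal neurons are mostly GABAergic, and glutamatergic fibres from thalamus and cortex reach them, but the cell bodies that hold the mRNA of VGLUT2 lie outside the striatum. Avp, Oxt and Pmch encode the precursors of vasopressin, oxytocin and melanin-concentrating hormone, which are made by small, compact groups of hypothalamic neurons. The other 3 genes are less exclusive. Tcf7l2 encodes a transcription factor of the Wnt pathway that is also made by maturing oligodendrocytes, Prkcd encodes protein kinase C delta, and Zic1 encodes a zinc-finger transcription factor that is also made by meningeal cells.

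The genes lie on 6 chromosomes of the mm10 build (assembly GRCm38.p6). Slc17a6 (gene ID 140919) spans chromosome 7, 51621830 to 51671126, on the plus strand, Tcf7l2 (21416) chromosome 19, 55741797 to 55933659, on the plus strand, and Prkcd (18753) chromosome 14, 30595353 to 30626414, on the minus strand. Zic1 (22771) spans chromosome 9, 91358058 to 91365768, on the minus strand, and Pmch (110312) chromosome 10, 88091072 to 88092374, on the plus strand. Oxt (18429; chromosome 2, 130574519 to 130577054, plus strand) and Avp (11998; chromosome 2, 130580620 to 130582588, minus strand) are neighbours that face each other, with 3565 bases between them. Whether the counting used strand is not given in the sources used here. This matters most for Pmch, a gene of 1303 bases that overlaps Parpbp on the opposite strand by 943 bases in the GENCODE annotation, and for Zic1, which overlaps the divergent gene Zic4.

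Promoter sequence is shown for the 3 peptide genes because they had their highest value in the same library (below). Each line is the 250 bases before the annotated start of transcription, 5′ to 3′ on the gene's strand, from RefSeq on GRCm38.p6. For Oxt the start used is that of the promoter table, which lies inside the gene span given above and not at its first base. The windows are chr2:130582589-130582838 (minus strand) for Avp, chr2:130575919-130576168 (plus strand) for Oxt and chr10:88090822-88091071 (plus strand) for Pmch. Capitals mark CAGACATAAA in Avp and Oxt, the longest run of bases that these windows share, and TATAAA, the core of the TATA box, in Pmch.

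Avp: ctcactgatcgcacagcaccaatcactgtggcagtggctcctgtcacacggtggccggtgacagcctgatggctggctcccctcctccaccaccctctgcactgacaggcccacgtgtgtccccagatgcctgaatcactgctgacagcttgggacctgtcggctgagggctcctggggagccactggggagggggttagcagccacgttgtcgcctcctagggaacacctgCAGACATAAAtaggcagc

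Oxt: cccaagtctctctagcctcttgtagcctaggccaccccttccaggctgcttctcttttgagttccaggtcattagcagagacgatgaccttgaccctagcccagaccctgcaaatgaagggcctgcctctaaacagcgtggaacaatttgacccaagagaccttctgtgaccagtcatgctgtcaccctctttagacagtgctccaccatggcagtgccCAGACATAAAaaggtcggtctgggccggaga

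Pmch: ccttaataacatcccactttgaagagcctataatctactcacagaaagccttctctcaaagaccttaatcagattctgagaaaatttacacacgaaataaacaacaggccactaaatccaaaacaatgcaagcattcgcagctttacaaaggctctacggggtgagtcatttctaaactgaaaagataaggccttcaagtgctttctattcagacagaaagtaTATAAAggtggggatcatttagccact

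The shared run of 10 bases lies 18 to 9 bases before the start site in Avp and 31 to 22 bases before it in Oxt. Searched on both strands, CAGACATAAA occurred in 18 of 32817 mouse promoter windows of this length (0.0548%), and the 2 searched motifs do not overlap each other. The run was picked from the Avp and Oxt windows, which are among the 18, so its presence in both was fixed in advance. Its share was not set against that of other runs of 10 bases, so it does not show that the match is unusual. TATAAA lies 27 to 22 bases before the start site of Pmch and occurred in 12.4% of the windows. The Avp window has 62.4% G and C and 7 CpG sites, the Oxt window 54.0% and 4, and the Pmch window 38.4% and 3, against medians of 52.4% and 6 over all windows. These matches describe the letters of the windows and were not tied to any measurement of binding.

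Total counts per library ran from 31563806 to 50573906, and no pair of replicates matched within sampling noise. Striatal identity was plain in every library: the summed TPM (a level relative to all transcripts of the library, corrected for length) of 12 spiny neuron genes ran from 7477 to 13017. In each generation 11 of these genes were higher and 1 lower in METH mice, none past an adjusted p of 0.05. Of all genes tested, 49.1% were higher in F1 and 49.5% in F2. The libraries differed in cortical marker genes. Slc17a7, the vesicular glutamate transporter of cortical neurons, ran from 7.60 to 452 TPM and exceeded 100 CPM (a count relative to the scaled library total, not corrected for length) in 5 libraries: F2 METH replicate 2, F1 METH replicate 3, replicates 1 and 3 of F1 saline, and replicate 4 of F2 saline. In bulk tissue, fewer cells of a type and less RNA per cell cannot be told apart.

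By median TPM over the 15 libraries the order of the 7 genes was Prkcd at 10.2, Zic1 at 9.84, Tcf7l2 at 3.31, Slc17a6 at 1.79, Avp at 0.580, Pmch at 0.398 and Oxt at 0.146. Neighbours in this order overlapped in their ranges, except that the lowest Zic1 library (6.60 TPM) lay above the highest Tcf7l2 library (4.39 TPM). The TPM of Oxt rests on a length longer than its coding transcript: its counts and FPKM imply a length of 2429 bases (median of 14 libraries), while its annotated coding transcript has 537 bases. The implied lengths were 698 bases for Avp and 884 for Pmch, close to their transcripts of 577 and 749 bases.

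**Figure D1:**
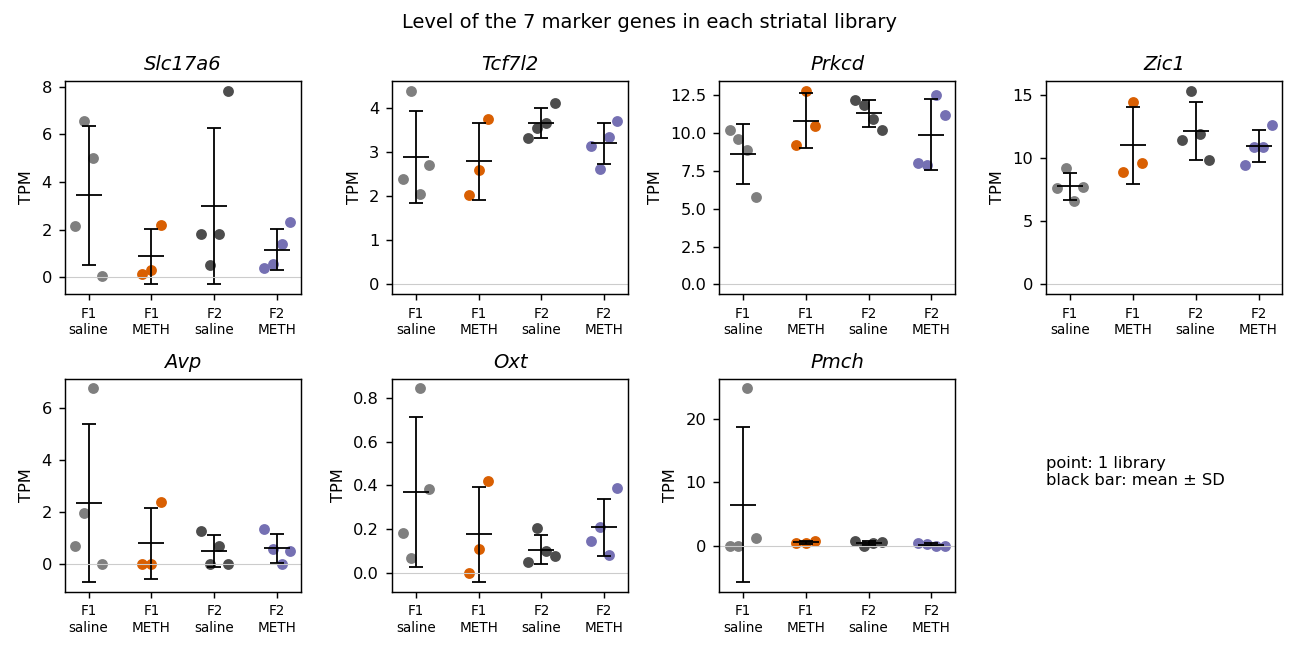
TPM of each of the 7 genes (vertical axis) in the 4 groups (horizontal axis), with 1 point per library and the group mean ± SD as a black bar. Slc17a6 spreads from 0.0577 to 7.83 TPM, the Pmch point of F1 saline replicate 3 stands at 24.9 TPM, and Tcf7l2, Prkcd and Zic1 stay within a 2.32-fold range.

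Slc17a6 was the most uneven of the 4 genes with reads in every library. In F1 saline mice, replicates 1 to 4 had 2.13, 6.56, 4.99 and 0.0577 TPM, the last from 5 reads. In F1 METH mice, replicates 1 to 3 had 0.147, 0.288 and 2.19 TPM. The highest and the lowest F1 libraries were thus both from the saline lineage, and the groups overlapped. In F2 saline mice, replicates 1 to 4 had 1.79, 0.509, 1.81 and 7.83 TPM, and in F2 METH mice 0.392, 0.565, 1.38 and 2.31 TPM. Over all libraries the highest was 136 times the lowest, and in F2 saline replicate 4 alone held 435 of the 725 Slc17a6 reads.

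The group means of Slc17a6 were 5.99 ± 5.04 CPM (mean ± SD, n = 4) in the F1 saline lineage and 1.59 ± 2.05 CPM (n = 3) in the F1 METH lineage. The log2 fold change of METH against saline was -1.91 (SE 1.19, 95% interval -4.62 to 0.79, edgeR adjusted p = 0.994). In F2 the saline mean was 4.74 ± 5.03 CPM and the METH mean 1.87 ± 1.40 CPM (n = 4 each), a log2 fold change of -1.35 (SE 0.72, interval -2.95 to 0.25, edgeR adjusted p = 0.960). Both estimates were below 0 and neither passed. Single libraries set their size: without F2 saline replicate 4 the F2 value was -0.30, and without F1 METH replicate 3 the F1 value was -3.83.

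Cortical markers also differed between these libraries. The summed TPM of 10 cortical genes ran from 157 to 738 in F1 saline, 141 to 542 in F1 METH, 133 to 351 in F2 saline and 139 to 290 in F2 METH mice, and none of the 10 was under 1 TPM in every library. Without the 5 libraries with Slc17a7 above 100 CPM, an alternative chosen after seeing the data, the Slc17a6 log2 fold change was -3.78 in F1 and -0.07 in F2. In F1 this left only saline replicates 2 and 4, with 408 and 5 Slc17a6 reads, and METH replicates 1 and 2, with 9 and 21. The F1 value thus rests on saline replicate 2, which lay just under the cut, with 3469 Slc17a7 reads. Across the 15 libraries, centred within generation, log2 CPM of Slc17a6 and Slc17a7 had r = 0.75 and rho = 0.70 (permutation p = 0.00182 and 0.00502, adjusted 0.00204 and 0.0151 over 3 pairs picked after seeing the data). Within F1 r was 0.86 (n = 7, exact permutation p = 0.0325) and within F2 0.56 (n = 8, exact permutation p = 0.144), where it came to 0.080 without the 2 libraries farthest from the median, so the F2 relation rests on those. F1 saline replicate 2 broke the pattern, with 6.56 TPM of Slc17a6, the second-highest value, at 81.9 TPM of Slc17a7. F2 METH replicate 2 departed the other way, with only 0.565 TPM of Slc17a6 at 117 TPM of Slc17a7. Libraries low in Slc17a7 also spread widely. F1 saline replicate 4 had 0.0577 TPM of Slc17a6 at 7.60 TPM of Slc17a7, and F2 saline replicate 1 had 1.79 at 9.25 TPM.

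Calb2, which encodes the calcium-binding protein calretinin and is made in midline thalamus among other regions, was highest in that same replicate, at 31.0 TPM. Its other F1 saline values were 6.13, 17.2 and 6.44 TPM, and the F1 METH values 4.40, 4.56 and 4.74 TPM, below all 4 saline values. In CPM, 2.42% of all genes tested in F1 were separated in that direction and 5.5% in either. The log2 fold change of Calb2 was -1.66 in F1 (SE 0.55, unadjusted p = 0.0143, edgeR adjusted p = 0.994). In F2 saline mice Calb2 was at 4.98 to 19.4 TPM, again highest in the replicate with the most Slc17a6, and in F2 METH mice at 3.65 to 9.17 TPM. Slc17a6 and Calb2 had r = 0.72 and rho = 0.55 (permutation p = 0.0016 and 0.0363, adjusted 0.00204 and 0.0545). Within F1 r was 0.68 (n = 7, exact permutation p = 0.0647) and within F2 0.81 (n = 8, exact permutation p = 0.0267). This pair too was picked after seeing the data, so its p-values are a description and not a test.

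Of 16 further thalamic genes, 1 was under 1 TPM in every library, the transcription factor gene Lhx9 at 0.577 TPM or less. Gbx2, a transcription factor of thalamic precursors, ran from 0.241 to 1.96 TPM, while the factors Prox1 (3.12 to 8.06 TPM), Lef1 (3.19 to 5.32 TPM) and Rora were higher. Of the 16 genes, 15 could be tested in each generation. In F1, 6 were higher and 9 lower in METH mice, with a median log2 fold change of -0.08, which was 0.03 without F1 saline replicate 3. In F2, 2 were higher and 13 lower, with a median of -0.10. None passed the threshold, and over all genes tested the medians were -0.0035 and -0.0020. The most abundant of them, Amotl1 at 9.74 to 19.7 TPM, Plcb4 at 6.19 to 17.9 and Rora at 8.41 to 13.1, are not exclusive to thalamus.

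Of 8 genes of the habenula, the small glutamatergic nucleus beside the thalamus, 4 were under 1 TPM in every library, including its defining factor Pou4f1 at 0.0855 TPM or less. Tac2, the neurokinin B gene, was at 14.7 TPM in F1 saline replicate 3 and between 0.549 and 6.15 TPM elsewhere. Its F1 log2 fold change was -2.33 (SE 0.74, unadjusted p = 0.0125, edgeR adjusted p = 0.994). Lrrc55 had -0.46 (SE 0.14, unadjusted p = 0.011) in F1. The F2 values were -0.29 (SE 0.44) for Tac2 and -0.08 (SE 0.13) for Lrrc55. Nwd2 and Gpr151 had -0.89 (SE 0.62) and -0.65 (SE 0.35) in F1 and 0.02 (SE 0.40) and 0.34 (SE 0.33) in F2. Of the 6 habenular genes tested, 2 were higher and 4 lower in each generation and none passed.

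Tcf7l2 was even across the libraries. Replicates 1 to 4 of F1 saline had 2.40, 4.39, 2.04 and 2.70 TPM, and replicates 1 to 3 of F1 METH 2.03, 2.59 and 3.75 TPM. F2 saline mice had 3.31, 3.54, 3.66 and 4.10 TPM and F2 METH mice 3.14, 2.61, 3.33 and 3.70 TPM. The groups overlapped in both generations and the highest library, F1 saline replicate 2, was 2.16 times the lowest. The log2 fold change was -0.0037 in F1 (SE 0.29, interval -0.66 to 0.66, edgeR adjusted p = 1.00) and -0.21 in F2 (SE 0.13, interval -0.50 to 0.09, edgeR adjusted p = 0.960). The sign of the F1 value, so near 0, changed under several alternatives.

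Among the 12 further Wnt genes, Lef1 and Tcf7, which encode factors of the same family as Tcf7l2, were at 3.19 to 5.32 and 2.70 to 4.78 TPM. Axin2, a common transcriptional target of the pathway, was at 12.0 to 22.3 TPM. In F1, 7 of 12 tested were higher and 5 lower in METH mice (median log2 fold change 0.04), in F2 5 of 11 were higher and 6 lower (median -0.02), and none passed. Markers of premyelinating oligodendrocytes, cells in which Tcf7l2 is known to be high, were higher in 6 of 8 cases in F1 (median 0.19) and lower in 7 of 8 in F2 (median -0.18), none past the threshold. Their summed TPM ran from 276 to 322 in F1 saline, 319 to 423 in F1 METH, 362 to 476 in F2 saline and 340 to 385 in F2 METH mice, and their part in the Tcf7l2 values was not tested. In the early myelination gene Bcas1 the F1 log2 fold change was 0.47 (SE 0.10, unadjusted p = 0.0013, edgeR adjusted p = 0.994), with 161 to 181 TPM in saline and 198 to 272 TPM in METH mice, and the F2 value was -0.20 (SE 0.12). In CPM, 3.08% of all genes tested in F1 were separated with METH higher.

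Prkcd had the highest median of the 7 genes. F1 saline replicates 1 to 4 had 10.2, 9.62, 8.87 and 5.76 TPM, and F1 METH replicates 1 to 3 had 9.23, 12.8 and 10.5 TPM. In CPM the groups did not overlap, but only just, with a highest saline value of 11.1 and a lowest METH value of 11.2, and in TPM they overlapped. The log2 fold change was 0.41 (SE 0.19, interval -0.01 to 0.84, unadjusted p = 0.0551, edgeR adjusted p = 0.994). In F2, saline mice had 12.2, 11.9, 11.0 and 10.2 TPM and METH mice 8.01, 7.89, 12.6 and 11.2 TPM. These groups overlapped, with a log2 fold change of -0.24 (SE 0.15, interval -0.57 to 0.10, edgeR adjusted p = 0.960).

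The most abundant of the other protein kinase C genes stood far above Prkcd, with Prkcb at 368 to 458 TPM and Prkcz at 169 to 203 TPM in F1 saline mice, while Prkcq, at 6.23 to 13.2 TPM over all libraries, was near the level of Prkcd. Together with the other vesicular glutamate transporters, 5 of 10 such genes were higher and 5 lower in F1, 6 higher and 4 lower in F2, and none passed.

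Zic1 stood at 7.59, 9.18, 6.60 and 7.68 TPM in F1 saline replicates 1 to 4 and at 8.91, 14.4 and 9.59 TPM in F1 METH replicates 1 to 3. The METH values exceeded all saline values except that replicate 1, at 8.91 TPM, fell below saline replicate 2. In F2, saline mice had 11.4, 15.3, 11.9 and 9.84 TPM and METH mice 9.46, 10.8, 10.8 and 12.6 TPM, with broad overlap. The F1 saline mean was 14.8 ± 2.59 CPM (n = 4) and the F1 METH mean 21.7 ± 7.09 CPM (n = 3), a log2 fold change of 0.55 (SE 0.22, interval 0.06 to 1.04, unadjusted p = 0.0325, edgeR adjusted p = 0.994). It came to 0.25 without F1 METH replicate 2. In F2 it was -0.19 (SE 0.13, interval -0.47 to 0.09, edgeR adjusted p = 0.960).

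Zic2, Zic4 and Zic5, genes of the same family, peaked with Zic1 in F1. In F1 METH replicate 2, Zic2 was at 6.60, Zic4 at 2.80 and Zic5 at 1.22 TPM, each the highest of the 15 libraries. Zic1 itself was 14.4 TPM there, the second-highest after F2 saline replicate 2. Zic4, whose start region overlaps that of Zic1, had r = 0.82 and rho = 0.50 with it (permutation p = 0.00204 and 0.0616, adjusted 0.00204 and 0.0616), and reads of the overlap cannot be assigned without strand. Within F1 r was 0.88 (n = 7, exact permutation p = 0.0583) and within F2 0.64 (n = 8, exact permutation p = 0.0835). The pair was picked after seeing the data, so its p-values are a description and not a test. Of 11 further septal genes, all above 1 TPM in some library, 6 were higher and 5 lower in F1 METH mice (median log2 fold change 0.15), and 4 higher and 7 lower in F2 (median -0.10), none past the threshold. Slc5a7, the choline transporter, and Lhx8, a factor of cholinergic neurons, are also made by striatal interneurons and led this list with Nts, the neurotensin gene. Nts had log2 fold changes of -1.35 in F1 (SE 0.50, unadjusted p = 0.0258, edgeR adjusted p = 0.994) and -0.73 in F2 (SE 0.21, unadjusted p = 0.00544, edgeR adjusted p = 0.960). For Matn2 they were -0.20 in F1 (SE 0.27) and -0.49 in F2 (SE 0.21, unadjusted p = 0.0408, edgeR adjusted p = 0.960).

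Meningeal fibroblast genes, measured because meninges also make Zic1, were higher in 9 of 10 cases in F1 METH mice (median log2 fold change 0.33) and lower in 7 of 10 in F2 (median -0.15), none past the threshold. Their summed TPM ran from 18.0 to 21.1 in F1 saline, 19.8 to 25.1 in F1 METH, 19.4 to 28.5 in F2 saline and 19.8 to 22.1 in F2 METH mice. Only Slc22a6 of the 10 stayed under 1 TPM in every library. Their part in the Zic1 values was not tested.

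The 3 peptide genes were near the limit of detection, apart from 1 library. Avp had 7, 18, 62 and 0 reads in F1 saline replicates 1 to 4, and 0, 0 and 20 reads in F1 METH replicates 1 to 3. In F2 it had 12, 0, 9 and 0 reads in saline mice and 13, 7, 0 and 4 reads in METH mice. On the TPM scale F1 saline replicate 3 was highest at 6.74, followed by F1 METH replicate 3 at 2.37, and the groups overlapped in both generations. In 6 libraries there was no Avp read, where a count of 0 still allows about 3 reads, and such floors ran from 0.0781 to 0.0948 CPM for the 3 genes.

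Oxt had 6, 3, 27 and 7 reads in F1 saline replicates 1 to 4 and 0, 4 and 9 reads in F1 METH replicates 1 to 3. In F2 the counts were 2, 6, 5 and 3 in saline mice and 5, 8, 2 and 11 in METH mice. Oxt was the only one of the 7 under 1 TPM in every library, yet it had reads in 14 of 15. The groups overlapped, and the highest value was again that of F1 saline replicate 3, at 0.844 TPM.

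Pmch had 0, 0, 281 and 14 reads in F1 saline replicates 1 to 4 and 5, 6 and 8 reads in F1 METH replicates 1 to 3. In F2 it had 9, 0, 6 and 7 reads in saline mice and 5, 4, 0 and 0 reads in METH mice. F1 saline replicate 3 thus held 281 of the 345 Pmch reads of the series, at 24.9 TPM, and the next library, F1 saline replicate 4, was at 1.14 TPM. Parpbp, the gene on the opposite strand, stood at 0.411 TPM there, inside its range of 0.169 to 0.902 TPM over the 15 libraries.

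Avp was the only peptide gene that passed the filter on low counts, which asks for reads in several libraries, and within a generation only in F1. Its log2 fold change was -1.54 (SE 1.49, interval -4.93 to 1.85, edgeR adjusted p = 0.994). It came to -7.42 without F1 METH replicate 3, the only METH library with reads, and to -0.94 without F1 METH replicate 2. F1 METH replicates 1 and 2 had 0 Avp reads, so the size of -7.42 is not a measured ratio. Without F1 saline replicate 2 or 3 the filter dropped Avp, so these values come from 5 omissions. The fit without replicate 3, which held 62 of the 87 saline reads, is thus missing. For the others, mean CPM was compared by two-sided exact permutation, with 5 such tests in all. In F1, the saline mean of Oxt was 0.286 ± 0.285 CPM and the METH mean 0.125 ± 0.137 CPM (exact permutation p = 0.571), and those of Pmch were 1.94 ± 3.63 and 0.184 ± 0.0493 CPM (p = 0.857, exact permutation). In F2, exact permutation gave p = 0.914 for Avp, 0.314 for Oxt and 0.286 for Pmch. Adjusted values were 0.786 or higher, and the smallest p these designs allow is 0.0571 in F1 and 0.0286 in F2.

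Other hypothalamic genes were mostly low. Of 27 listed, 16 were under 1 TPM in every library, and Hmx2, Hmx3 and Nkx2-4 had no read in any. Hcrt, the orexin gene of lateral hypothalamic neurons that neighbour those of Pmch, had 16 reads in F1 saline replicate 3 (1.75 TPM), 4 in F1 saline replicate 4, 2 in F2 saline replicate 3 and 0 elsewhere. Sim1, a factor of the hypothalamic nuclei that make vasopressin and oxytocin, was highest in another library, with 61 reads in F1 saline replicate 2. It had 4 reads in F1 saline replicate 3, 5 in F2 saline replicate 4 and 0 elsewhere. Otp, a second such factor, had 12 reads in F1 saline replicate 3 and 10 each in F1 saline replicate 2 and F2 saline replicate 4. It had 7 in F1 METH replicate 3, 5 in F2 METH replicate 2 and 0 elsewhere. The list's abundant genes, Npy at 292 to 411 TPM and Six3, are made by striatal cells themselves. Among the genes tested, 3 were higher and 7 lower in F1 METH mice (median log2 fold change -0.21), and 2 higher and 9 lower in F2 (median -0.08), none past the threshold.

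F1 saline replicate 3 differed in more than the peptide genes. It had the highest value of 9 of the 10 cortical genes, among them Slc17a7 at 452 TPM, and the lowest spiny neuron sum, 7477 TPM. It was also the highest library for 3 of 8 habenular genes, 3 of 16 thalamic genes and 5 of 27 hypothalamic genes. Its Slc17a6, at 4.99 TPM, was exceeded only by F1 saline replicate 2 and F2 saline replicate 4, while its Zic1 was the lowest of all at 6.60 TPM and its Tcf7l2 was 2.04 TPM. The part of tissue composition in these values was not tested.

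**Figure D2:**
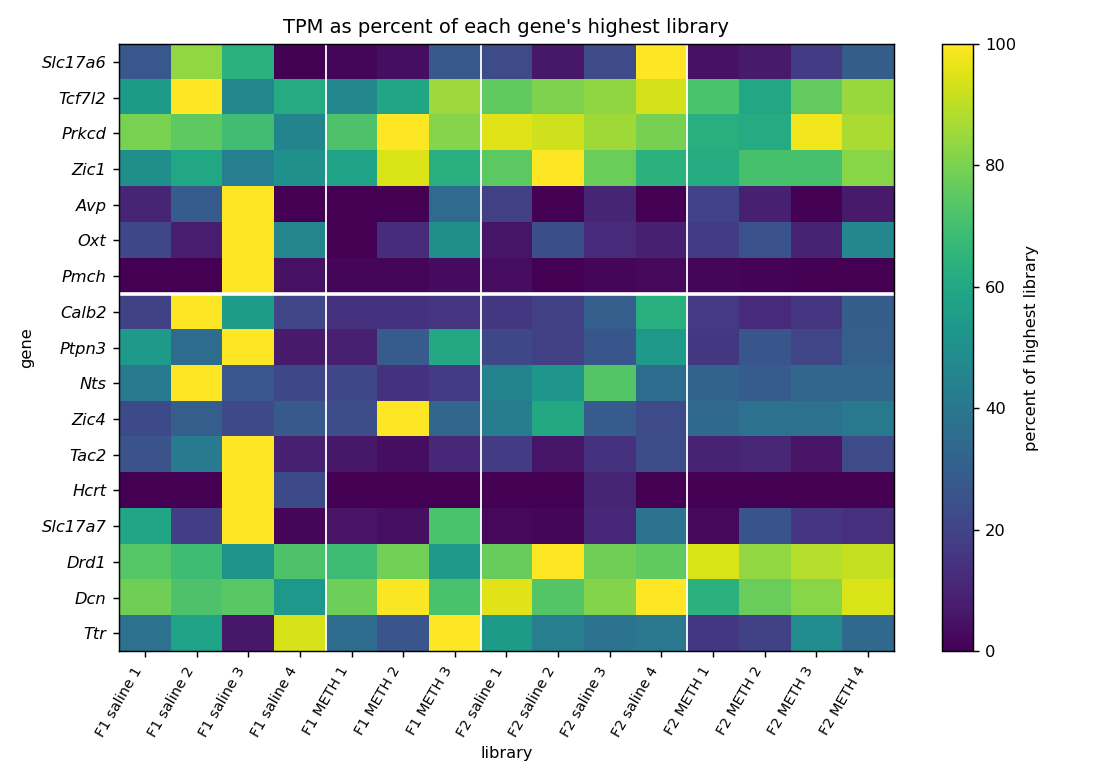
Level of the 7 genes (above the white line) and 10 other listed genes (rows) in each of the 15 libraries (columns), coloured as TPM in percent of that gene's highest library. Avp, Oxt, Pmch, Ptpn3, Tac2, Hcrt and Slc17a7 all reach 100 percent in F1 saline replicate 3, while Slc17a6 peaks in F2 saline replicate 4 and Zic4 in F1 METH replicate 2.

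The receptors and processing enzymes of these peptides were described beside them. Mchr1, the receptor of melanin-concentrating hormone, was abundant at 38.7 to 67.4 TPM. Its log2 fold change was -0.06 in F1 (SE 0.18) and 0.04 in F2 (SE 0.08). Oxtr, the oxytocin receptor, ran from 0.576 to 2.96 TPM and Avpr1a, a vasopressin receptor, from 0 to 1.01 TPM. For Oxtr the log2 fold change was -0.96 in F1 (SE 0.40, unadjusted p = 0.0425, edgeR adjusted p = 0.994) and -0.54 in F2 (SE 0.27, unadjusted p = 0.0697, edgeR adjusted p = 0.960). The prohormone convertase genes Pcsk1 and Pcsk2, with Cpe, Pam and Scg5, serve many peptides. Of the 7 genes tested in this list, 1 was higher and 6 lower in F1, 3 higher and 4 lower in F2, and none passed.

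**Figure D3:**
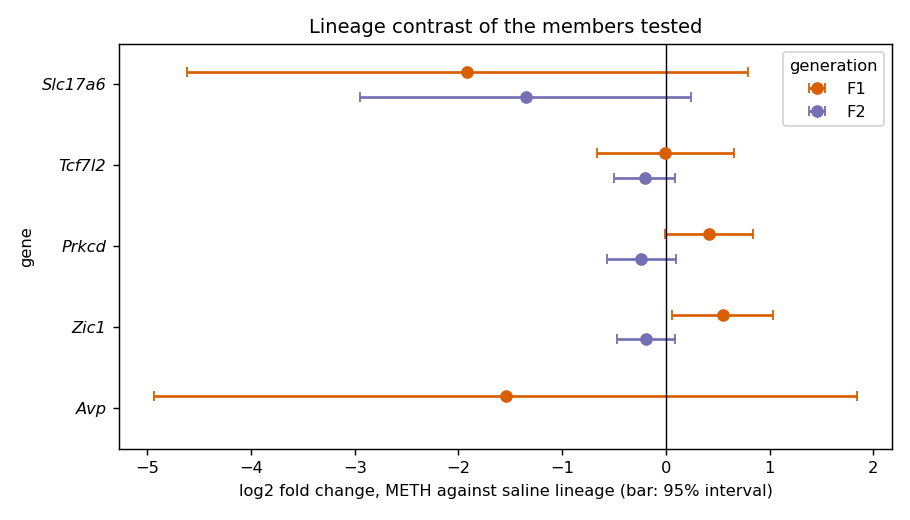
Log2 fold change of METH against saline lineage (horizontal axis) with its 95% interval for each gene that could be fitted (vertical axis), in F1 and F2. In F2 all 4 intervals include 0, and in F1 only that of Zic1, 0.06 to 1.04, does not.

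In all, 0 of the 5 genes fitted in F1 passed an edgeR adjusted p of 0.05, where 0% of 18499 genes passed, and 0 of the 4 fitted in F2, where 0% of 18093 genes passed. At an unadjusted p under 0.05, 1 of 5 was called in F1, against 4.18% of all genes, and 0 of 4 in F2, against 4.77%. DESeq2 called 0 of the genes in either generation, as did limma-voom. The METH lineage was higher in Prkcd and Zic1 and lower in Slc17a6, Tcf7l2 and Avp in F1, and lower in all 4 genes in F2. In CPM the groups did not overlap for 1 of the 7 genes in F1, Prkcd with METH higher, where 3.08% of all genes tested were separated in that direction, 2.42% in the other and 5.5% in either. In F2 the groups overlapped for all 7 genes, where 1.35% of all genes were separated with METH higher, 1.19% with METH lower and 2.54% in either direction.

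The generations were compared by an interaction over the 15 libraries, the F2 effect minus the F1 effect. For Zic1 the difference was -0.75 (SE 0.26, interval -1.30 to -0.20, unadjusted p = 0.0112, edgeR adjusted p = 0.898) and for Prkcd -0.66 (SE 0.25, interval -1.19 to -0.13, unadjusted p = 0.0178, edgeR adjusted p = 0.909). Both had an F1 effect above 0 and an F2 effect below 0. For Slc17a6 the difference was 0.56 (SE 1.46), for Tcf7l2 -0.21 (SE 0.31) and for Avp 1.79 (SE 2.03). Without F1 METH replicate 2 the Zic1 difference was -0.43, and the Avp difference ran from 0.46 without F1 saline replicate 3 to 7.71 without F1 METH replicate 3. The fit that gave 7.71 had 0 Avp reads in the F1 METH group, so that size is not a measured ratio. Thus 0 of 5 passed, where 0.00518% of 19308 genes passed, and 2 of 5 had an unadjusted p under 0.05, where 4.88% of all genes did.

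The 4 genes with reads in every library were compared in pairs. Of the 6 pairs among Slc17a6, Tcf7l2, Prkcd and Zic1, only Prkcd and Zic1 varied together past the threshold, with r = 0.65 and rho = 0.70 over the 15 libraries after centring log2 CPM within generation (permutation p = 0.00376 and 0.0048, adjusted 0.0226 and 0.0288). Without the 2 libraries farthest from the median of Prkcd, r was 0.80. Within F1 it was 0.67 (n = 7, exact permutation p = 0.0643) and within F2 0.65 (n = 8, exact permutation p = 0.0714), of like size but not past the threshold. On log2 TPM, rho was 0.58 with an adjusted p of 0.161, so that call was lost. Both genes of a pair share the depth and scaling of each library. Values were not centred within lineage, so a lineage difference that both genes share also enters r. For Prkcd and Zic1 the lineage estimates had the same sign in each generation. The same limit holds for every pair given here.

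For Slc17a6 no correlation with the other 3 passed. Its r was 0.39 with Tcf7l2 (rho 0.39, permutation p = 0.151 and 0.148, adjusted 0.454 and 0.385), 0.25 with Prkcd (rho 0.025, p = 0.375 and 0.934 by permutation, adjusted 0.508 and 0.934) and -0.29 with Zic1 (rho -0.12, p = 0.301 and 0.669 by permutation, adjusted 0.508 and 0.803). Tcf7l2 had r = 0.18 with Prkcd and 0.22 with Zic1. In TPM, Slc17a6 and Tcf7l2 had their highest library in common in each of the 4 groups, replicate 2 of F1 saline, 3 of F1 METH, and 4 of both F2 groups. That feature was picked after seeing the data and was not tested. A correlation that misses the threshold over 15 libraries does not show that these genes varied apart.

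**Figure D4:**
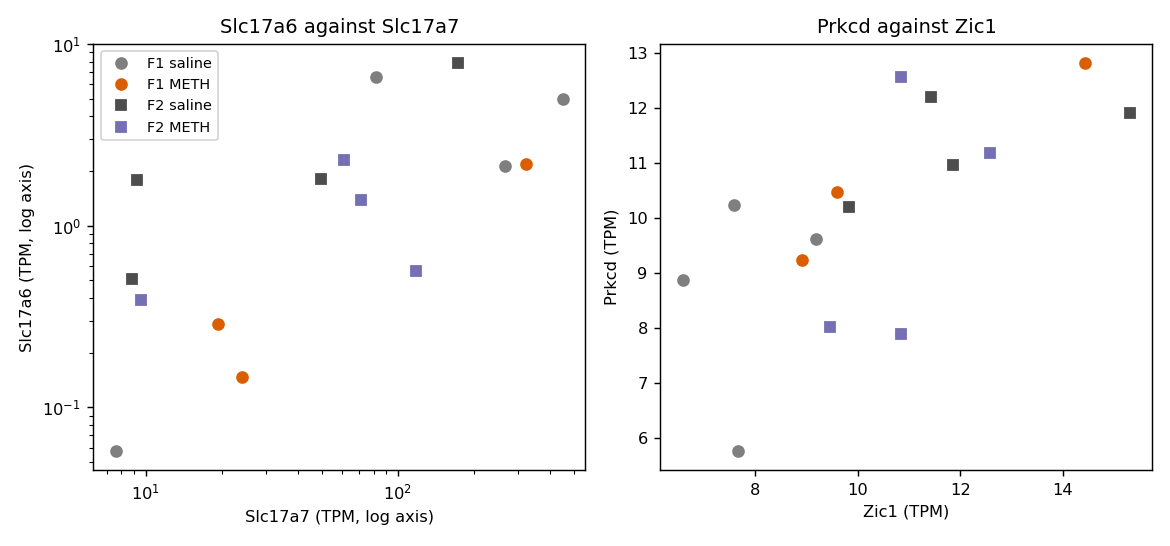
Left, Slc17a6 against Slc17a7 in TPM, both on log axes. Right, Prkcd against Zic1 in TPM, with 1 point per library and the groups by colour and shape. Libraries high in Slc17a7 tend to be high in Slc17a6. Among the libraries that depart from this are F1 saline replicate 2, at 81.9 and 6.56 TPM, and F2 METH replicate 2, at 117 and 0.565 TPM. At low Slc17a7 the spread is also wide, with F1 saline replicate 4 at 7.60 and 0.0577 TPM. F2 saline replicate 1 is at 9.25 and 1.79 TPM. Prkcd and Zic1 are each lowest in an F1 saline library, at 5.76 and 6.60 TPM.

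The genes most like each member were sought among 13315 genes over the 15 libraries, by r of centred log2 CPM, and are given as a description with no test. Slc17a6 was most like Sertm1 (r = 0.95, rho = 0.92), the NMDA receptor subunit gene Grin3a (0.94 and 0.95) and the adenylyl cyclase gene Adcy8 (0.94 and 0.91). Tcf7l2 was most like the galanin receptor gene Galr1 (0.87 and 0.82), Rcc1 (0.80 and 0.70) and the otoferlin gene Otof (0.77 and 0.66). Prkcd was most like Zfp608 (0.85 and 0.65), the kinesin gene Kif13a (0.84 and 0.88) and the phosphatase gene Phlpp1 (0.81 and 0.84). Zic1 was most like the transcription factor gene Klf9 (0.88 and 0.76), Zfp273 (0.84 and 0.82) and Rerg (0.84 and 0.58). Sertm1, Grin3a and Adcy8 spanned 2.08 to 12.3, 3.42 to 11.6 and 1.97 to 6.30 TPM, narrower ranges than that of Slc17a6.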

How the data were processed

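The deposited tables, 1 per generation, hold read counts, FPKM and TPM for each gene in 15 striatal libraries, per the file headers. The counts are whole numbers with differing totals and were used as deposited. Values headed FPKM and TPM were computed by the authors. The implied length of a gene was computed from its deposited count and FPKM. The submitters' processing notes name build mm10, StringTie 2.1.3b, HISAT2 2.1.0, bcl2fastq 2.20.0 and Trimmomatic, while settings, strandedness and the derivation of counts are not stated in what was used here. Names matched all 45 value columns to samples, and the annotation placed 45679 of 45777 features by gene ID.

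The sample titles gave the groups. In R 4.3.3, edgeR 4.0.16 was run on the counts (glmQLFit, glmQLFTest, TMM, filterByExpr at a minimum of 10 counts, threshold 0.05 for the Benjamini-Hochberg adjusted p over all genes tested), for each generation separately and, for the difference, as an interaction over 15 libraries. The filter dropped Oxt and Pmch in F1 and Avp, Oxt and Pmch in F2. These were compared with scipy 1.17.1 by two-sided exact permutation of mean CPM. CPM used TMM-scaled totals. Correlations used log2 CPM with a prior count of 2, centred within generation, with 100000 permutations. Simulated data, in which 200 genes had been changed, were used to test the edgeR fits. Of genes changed 1.5-fold, the F1 fit recovered 16.4%, the F2 fit 44.8% and the interaction fit 19.4%. At 2-fold these shares were 55.2%, 62.7% and 52.2%, and at 4-fold 84.8%, 90.9% and 60.6%. False calls numbered 7, 10 and 5. Most changes of 1.5-fold were thus missed by each fit, so missing the threshold does not exclude a change of that size.

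Members and the 12 marker lists were chosen with earlier results of these data known. The rule named all members, the 4 genes of each list with the highest mean TPM, any listed gene past the threshold, and the 3 genes most like each member with a mean of at least 1 CPM, leaving out predicted genes, clones and pseudogenes. Gbx2, Lhx9, Prox1, Prkcq, Pou4f1, Lef1, Tcf7, Axin2, Zic2, Zic4, Zic5, Hcrt, Sim1, Otp, Hmx2, Hmx3, Nkx2-4, Slc22a6, Mchr1, Oxtr, Avpr1a, Pcsk1 and Parpbp fall outside it and were named after their values were seen, as were Ptpn3 and Drd1 in a figure. Not every gene that the rule named is printed above. The choroid plexus list, not described there, had 2 genes higher and 3 lower in F1 METH mice, and 1 higher and 5 lower in F2, none past the threshold. Alternatives were DESeq2 1.42.0, limma 3.58.1 (voom, and trend on log2 TPM plus 1 or 0.1), other filters and thresholds, a replicate block, and the omission of each library in turn. The replicate block left out F1 saline replicate 4, which has no same-numbered METH sample. Figures used Python 3.11.15 and matplotlib 3.10.9.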

Additional observations from a re-analysis of the deposited data

Results flagged for a closer look

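The highest or lowest library of a group of 4 stood far apart from the other 3 in 4 of 57 groups examined. That is, its gap to the nearest, over the group's range, exceeded Dixon's 95% critical value. For independent, normally distributed values, chance alone sets apart about 1 group in 20. The groups here shared libraries and some held counts near 0, so that rate need not hold. For Pmch, F1 saline replicate 3 was at 7.38 CPM, with the others at 0, 0 and 0.369 CPM. For Oxt the same library was at 0.709 CPM, with the others at 0.0847, 0.166 and 0.185 CPM. The summed TPM of the hypothalamic list was 384 in F2 saline replicate 1, below the other 3 libraries of its group, and Npy made up most of that sum in every library. The summed TPM of the spiny neuron list was 13017 in F2 saline replicate 2, above the other 3 libraries of its group.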

How the results depend on the processing

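None of the 7 genes and none of the listed genes was called under any alternative run, each of which used the genes its own filter kept. Counts of calls over all genes were small and varied. In F1, edgeR called 0 genes, DESeq2 7, limma-voom 3, log2(TPM + 1) and log2(TPM + 0.1) 1 each, and a fit of all 15 libraries 1. In F2, edgeR called 0, DESeq2 9 and limma-voom 1. For the difference, edgeR called 1, DESeq2 4, and limma-voom, a mean CPM of at least 1 and both TPM scales 0. Without the libraries with Slc17a7 above 100 CPM the counts were 1, 1 and 0, and leaving out 1 library they ran from 0 to 2 in F1, 0 to 1 in F2 and 0 to 2 for the difference. The pairs past the threshold numbered 1 over both generations and 0 within F1 or F2 alone, where fewer libraries entered. Same-numbered samples did not deviate together in every pair (correlations -0.0062 to 0.54 in F1 and -0.093 to 0.031 in F2), so the numbers were not taken to pair them. With a replicate block no gene was called in either generation (0 and 0) or for the difference (0), and Slc17a6 had -2.86 in F1 (edgeR adjusted p = 0.235). In F1 and for the difference, that fit also left out F1 saline replicate 4, which has no same-numbered METH sample. This library held only 5 Slc17a6 reads, so the block was not the only change in the fit. Some values changed sign. Tcf7l2 in F1 was 0.030 with limma-voom, 0.025 with the replicate block and -0.25 to 0.26 leaving out 1 library (0.26 without F1 saline replicate 2, 0.14 and 0.07 without F1 METH replicate 1 or 2). For the difference, Tcf7l2 was 0.029 without F1 METH replicate 3, 0.47 without the libraries with Slc17a7 above 100 CPM, and -0.48 to 0.029 leaving out 1 library. Slc17a6 was -0.035 for the difference without F2 METH replicate 4, in a range of -0.035 to 2.47. Zic1 ran from 0.25 to 0.69 and Prkcd from 0.28 to 0.50 in F1 leaving out 1 library, and the F1 median of the cortical list from -2.67 (without F1 METH replicate 3) to 0.33. The thalamic F1 median ran from -0.13 to 0.03, Avp in F1 from -7.42 to -0.94, and for the difference Zic1 from -0.89 to -0.43 and Avp from 0.46 to 7.71. The causes of these shifts were not tested. Avp in F1 could not be fitted where the filter dropped it, as when F1 saline replicate 2 or 3 was left out. Its F1 range therefore covers 5 omissions. The Avp values -7.42 and 7.71 come from fits with 0 Avp reads in the F1 METH group and are not measured ratios. With 0 to 62 Avp reads, 0 to 27 Oxt reads and, outside 1 library, 0 to 14 Pmch reads, counting limits what could be seen for the peptide genes.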
